A study of Brassica oleracea with 7 samples.

Results

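Open flower and stem of Brassica oleracea, the species of cabbage and broccoli, were compared gene by gene from RNA-seq levels, with 1 library for each organ. The flower library held flowers that had opened on the same day, taken without the floral shoot. The stem library came from plants of 7 weeks, and both organs were from greenhouse plants at the same institute. Neither the age of the flowering plants nor the number of plants behind a library is stated in the labels, so organ and plant age cannot be told apart. Bud of 0.8 cm, silique at 15 days after pollination, leaf and root of 7 weeks and callus from tissue culture, also with 1 library each, gave the context. Genes entered the comparison with an FPKM of 1 or more in flower or in stem, where FPKM counts fragments relative to gene length and to library size. Of 39481 genes in the deposited table, 24977 met that rule. The highest value among the genes left out was 0.999 FPKM and the lowest value that qualified a gene was 1.0002 FPKM.

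A flower is built from sepals, petals, stamens and carpels, and on the day of opening its anthers carry mature pollen and its stigma can receive it. A stem joins leaf and root through vascular bundles, in which xylem conducts water and phloem conducts sugars, and its outer cells are green. The organs therefore hold different mixtures of cells. In such bulk samples fewer cells of a type and less RNA per cell cannot be told apart. The deposited table has no gene names, and 0 of its 39481 IDs occur in the RefSeq annotation of the species (assembly BOL). Genes are given by ID with their locus on the scaffolds of the deposited table, for which no build is stated in the labels or headers. For the same reason the 9 marker symbols listed for flower and stem found 0 genes, and the tissue labels were not checked against markers.

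The widths of the deposited intervals corresponded to 8459141 fragments in gene models for flower, the fewest of the 7 libraries, and 8809332 for stem. The most were 10598033, in root. These fragments were 61.2% of the library size that FPKM was divided by in flower and 64.6% in stem. The other libraries had larger shares, from 68.3% in callus to 77.5% in root. The median gene with a value above 0 had 58.0 fragments in flower and 62.0 in stem. With 1 library per organ no difference has a replicate check and no p-value was computed. The intervals printed here are the authors' deposited bounds, which cover counting error for values above 0 and not the spread between plants.

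Flower and stem differed in both directions to nearly the same extent. On the scale of log2(FPKM + 1), 1693 genes (6.78% of those compared) were at least 4-fold higher in flower and 1584 (6.34%) were at least 4-fold higher in stem. They are called flower-higher and stem-higher genes below. Among the called genes, 51.7% were higher in flower. Most genes were close to equal, since 15627 (62.6%) lay within 2-fold, and the median log2 difference of flower minus stem was 0.05 with quartiles of -0.72 and 0.75. At 16-fold the balance leaned to flower, with 386 genes (1.55%) higher there and 256 (1.02%) higher in stem. At 2-fold it was nearly even, with 4661 (18.7%) and 4689 (18.8%). The smallest difference among the flower-higher genes was 2.001 and the largest just outside was 1.9996. For stem-higher genes these were -2.001 and -1.999. Judged by the deposited bounds alone, whose intervals were apart for every called gene, 8080 genes (32.3%) were higher in flower and 7510 (30.1%) in stem. Bol045054, listed at 0 in stem, had both bounds at 0 there, so intervals of this kind leave out the counting error of a 0. Stem was listed at 0 for 450 flower-higher genes, and flower for 99 stem-higher genes. Rank order was moderately shared, with a Spearman's rho of 0.66 across the 24977 genes, which are not independent replicates.

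**Figure D1:**
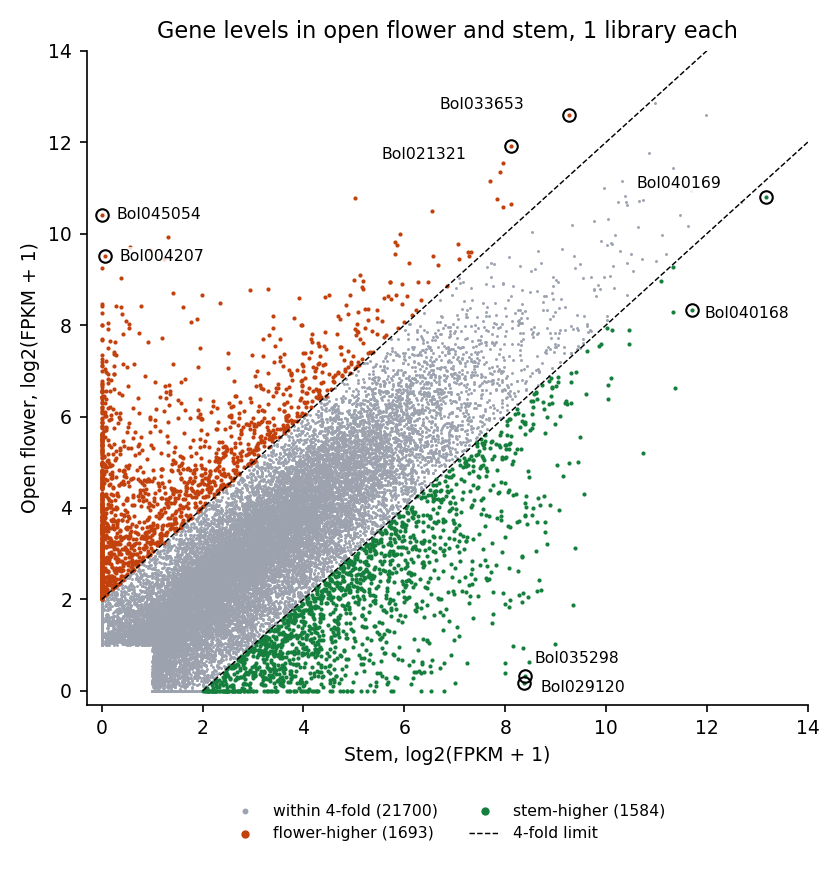
Level of each compared gene in stem (horizontal) and open flower (vertical), both as log2(FPKM + 1), with 1 library per organ; dashed lines mark the 4-fold limit and circles mark named genes. The 1693 flower-higher genes reach up along the left edge, where stem is listed at or near 0, and the 1584 stem-higher genes lie under the lower line, with few of them at 0 in flower.

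The largest differences toward flower belonged to genes at or near 0 in the vegetative libraries. Bol045054 (Scaffold000001_P2, 2212896 to 2215032) reached 1351 FPKM in flower (1336 to 1366), with 85.0 FPKM in bud, 0.252 FPKM in root, 0.167 FPKM in leaf and 0.0830 FPKM in silique, and was listed at 0 in stem and callus. In stem 3 fragments would have been 0.126 FPKM. Bol004207 (Scaffold000329, 378073 to 381686) reached 724 FPKM in flower (713 to 736), with 117 FPKM in bud and 0.146 FPKM or less in the other 5 libraries, with 1 fragment behind its stem value of 0.0444 FPKM. Both genes were thus floral in these libraries, and both were lower in bud than in the open flower. Their log2 differences between flower and stem were 10.40 and 9.44 (9.30 to 9.52 from the interval bounds). The locus of Bol004207 overlaps another locus.

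The largest differences toward stem belonged to genes that root and callus also held at high levels. Bol029120 (Scaffold000067, 343422 to 344172) was at 331 FPKM in stem (318 to 344), 209 FPKM in root and 36.8 FPKM in callus. It was at 2.74 FPKM in leaf, 1.19 FPKM in silique, 0.842 FPKM in bud and 0.119 FPKM in flower, where 1 fragment was counted. Bol035298 (Scaffold000035_P2, 480756 to 481408) was alike, but with root (394 FPKM) above stem (333 FPKM), followed by 101 FPKM in callus, 3.25 FPKM in silique, 2.74 FPKM in leaf, 2.11 FPKM in bud and 0.261 FPKM in flower. The log2 differences of flower minus stem were -8.21 (-8.43 to -7.88) and -8.05 (-8.44 to -7.62). For both genes the leaf value lay with the floral organs and silique, far below stem.

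The most abundant flower-higher genes were present in stem as well. Bol033653 (Scaffold000041, 896162 to 897459) reached 6181 FPKM in flower, with 668 FPKM in silique, 611 FPKM in stem, 79.9 FPKM in bud, 62.7 FPKM in callus, 7.61 FPKM in root and 1.38 FPKM in leaf. Its level in bud was below that in stem, so bud did not share its high level. Bol021321 (Scaffold000116, 838365 to 840239) reached 3843 FPKM in flower, with 736 FPKM in callus, 428 FPKM in bud, 412 FPKM in silique, 276 FPKM in stem, 159 FPKM in leaf and 3.16 FPKM in root. Their log2 differences were 3.34 (3.29 to 3.38) and 3.79 (3.73 to 3.85). The locus of Bol033653 overlaps another locus.

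The most abundant stem-higher genes were neighbours that were all but missing from root. Bol040169 (Scaffold000014, 754017 to 754986) was at 9211 FPKM in stem, 6609 FPKM in silique, 3946 FPKM in bud, 2212 FPKM in callus, 1790.2 FPKM in flower, 409 FPKM in leaf and 2.37 FPKM in root. Bol040168 (Scaffold000014, 747533 to 754886) was at 3330.2 FPKM in stem, 2646 FPKM in silique, 1275 FPKM in bud, 645 FPKM in callus, 321 FPKM in flower, 20.2 FPKM in leaf and 0.697 FPKM in root. The order of the 7 libraries was the same for both. Their log2 differences were -2.36 and -3.37. The loci overlap, and no strand-marking step is described in the labels, so fragments of these neighbours may not be told apart and each level is uncertain.

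**Figure D2:**
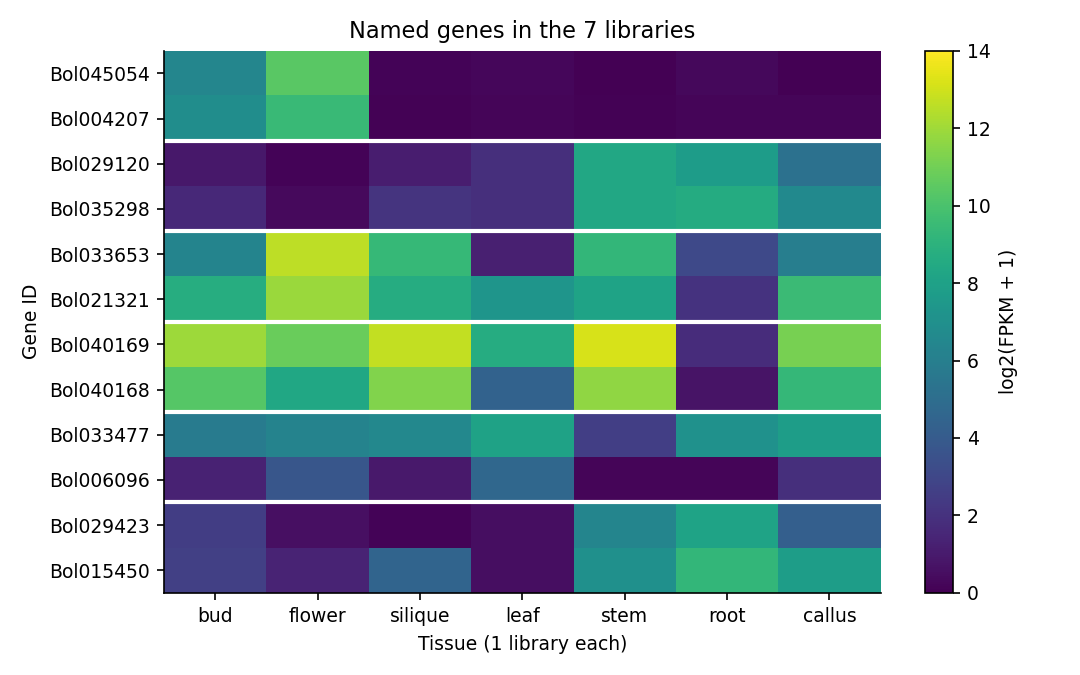
Levels of the named flower-higher and stem-higher genes in the 7 libraries, as log2(FPKM + 1) by colour, with white lines between the pairs. From the top, the pairs are the largest differences toward flower and toward stem, the most abundant genes of each direction, the pair of flower-higher genes that were lower in bud than in leaf, and the pair of stem-higher genes that were higher in bud than in leaf; the second and last pairs are bright in both stem and root.

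Abundant genes passed the 4-fold limit more often than genes of low level. Of 13154 genes whose higher value lay between 1 and 10 FPKM, 489 (3.72%) were flower-higher and 294 (2.24%) stem-higher. Between 100 and 1000 FPKM these shares were 15.6% and 22.4% of 1464 genes, and from 1000 FPKM upward 12 and 14 of 67 genes. Genes under 3 FPKM in both organs cannot pass a 4-fold limit on this scale. The classes use the values that chose the genes, and the added 1 FPKM narrows differences at low levels. The rise with level is therefore in part built in and is a description. The lists of the 100 most abundant genes of each organ shared 46 genes. The flower list took 21.2% of the summed FPKM of flower and held 37 flower-higher genes and 3 stem-higher genes. The stem list took 21.4% of the summed FPKM of stem and held 30 stem-higher genes and 1 flower-higher gene. Over all genes compared, 6.78% were flower-higher and 6.34% stem-higher. Each list was picked on a value that also chose the called genes, so its lean to its own organ is a description.

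Stem was listed at 0 for 848 of the genes compared and flower for 274. The filter was passed through flower alone by 2869 genes, of which 967 were flower-higher, and through stem alone by 2169 genes, of which 509 were stem-higher. Both organs reached 1 FPKM for 19939 genes, with 726 flower-higher and 1075 stem-higher. These counts use the values that chose the genes and are a description. Of the 1693 flower-higher genes 450 were listed at 0 in stem, while 99 of the 1584 stem-higher genes were listed at 0 in flower. A listed 0 allows up to 3 fragments, a median of 0.324 FPKM for the former and 0.409 FPKM for the latter. With stem at that limit, 360 of the 440 flower-higher genes at 0 with an implied coding length still passed 4-fold, as did 69 of the 99 stem-higher genes with flower at it. The median flower-higher gene rested on 6 fragments in stem, and the median stem-higher gene on 31 fragments in flower.

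Outside flower, the median of flower-higher genes was near that of all genes in bud and below it in the other libraries. Their median level was 20.9 FPKM in flower and 0.560 FPKM in stem, the libraries that chose them. In the other libraries it was 9.45 FPKM in bud, 2.07 FPKM in callus, 1.68 FPKM in silique, 0.437 FPKM in leaf and 0.354 FPKM in root. Over all 24977 genes the medians were 7.67 FPKM in bud, 8.99 FPKM in callus, 7.29 FPKM in silique, 7.26 FPKM in leaf and 4.58 FPKM in root. At 1 FPKM or more, 1557 flower-higher genes (92.0%) were detected in bud, close to the 91.1% of all genes compared. In silique 947 (55.9%) were detected, against 87.4% of all genes, in leaf 716 (42.3%), against 84.7%, and in root 646 (38.2%), against 76.2%. Under 1 FPKM in all 6 libraries other than flower were 40 genes (2.36%), a share that was not computed for all genes compared. Flower, which chose them, was the highest of the 7 libraries for 1099 (64.9%). Bud was highest for 328 (19.4%, against 13.2% of all genes), callus for 127 of the 1693 (against 23.1%), silique for 63 (3.72%, against 9.87%), leaf for 49 (2.89%, against 19.5%) and root for 27 (1.59%, against 11.0%).

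Contrasts between libraries that played no part in choosing the genes also set bud above leaf and root. Between bud and leaf, 806 of 1693 flower-higher genes (47.6%) were at least 4-fold higher in bud, against 7.43% of all genes compared, and 22 (1.30%) were at least 4-fold higher in leaf, against 2.25%. The median log2 difference of bud minus leaf was 1.90 for flower-higher genes and 0.01 for all genes. Between bud and root, 921 (54.4%) were higher in bud, against 16.6% of all genes, and 35 (2.07%) were higher in root, against 6.55%. In silique against leaf, 242 (14.3%) were higher in silique, against 5.72% of all genes, and 62 (3.66%) in leaf, against 3.61%. In root against leaf, 85 (5.02%) were higher in root, against 6.95%, and 180 (10.6%) in leaf, against 13.1%. Many of these genes were near 0 in both organs of the latter contrasts, and a call needs 3 FPKM in either organ. Over the genes that reached it, 66.9% of 1376 flower-higher genes were higher in bud than in root, against 20.3% of all genes. For silique and leaf, 30.0% of 807 were higher in silique, against 7.13%, and 7.68% in leaf, against 901 of 20044 of all genes. For root and leaf, 13.3% of 638 were higher in root, against 8.84%, and 28.2% in leaf, against 16.7%. In the contrast of root with leaf, the shares thus lay below those of all genes over the whole set and above them over the genes that could pass. After trimmed mean rescaling of the 7 libraries the 85 genes became 139 of 1775 (7.83%), still below the share of all genes (9.52%).

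Outside stem, stem-higher genes stood highest in root. Their median was 29.2 FPKM in stem and 2.51 FPKM in flower by choice, and 14.6 FPKM in root, 13.3 FPKM in callus, 7.73 FPKM in silique, 7.06 FPKM in leaf and 6.52 FPKM in bud. Only in root and callus did this exceed the median over all genes (4.58 FPKM and 8.99 FPKM) by more than 1 FPKM. Stem was the highest library for 670 of 1584 genes (42.3%), root for 500 (31.6%), leaf for 142 (8.96%), callus for 111 (7.01%), silique for 103 (6.50%) and bud for 58 (3.66%). Over all genes compared these shares were 9.04% for stem, 11.0% for root, 19.5% for leaf, 23.1% for callus, 9.87% for silique and 13.2% for bud, so that root, of the libraries that did not choose the genes, had the only share above that of all genes. Stem-higher genes were also expressed more widely than flower-higher genes. At 1 FPKM or more in all 5 libraries outside the comparison were 921 of them (58.1%), against 428 flower-higher genes (25.3%), and 11 (0.694%) were under 1 FPKM in every library but stem. These shares were not computed for all genes compared. Taken library by library, stem-higher genes were detected less often than all genes in bud (81.9% against 91.1%), silique (84.8% against 87.4%) and leaf (78.7% against 84.7%). They were detected more often in root (80.8% against 76.2%) and callus (90.5% against 89.2%).

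**Figure D3:**
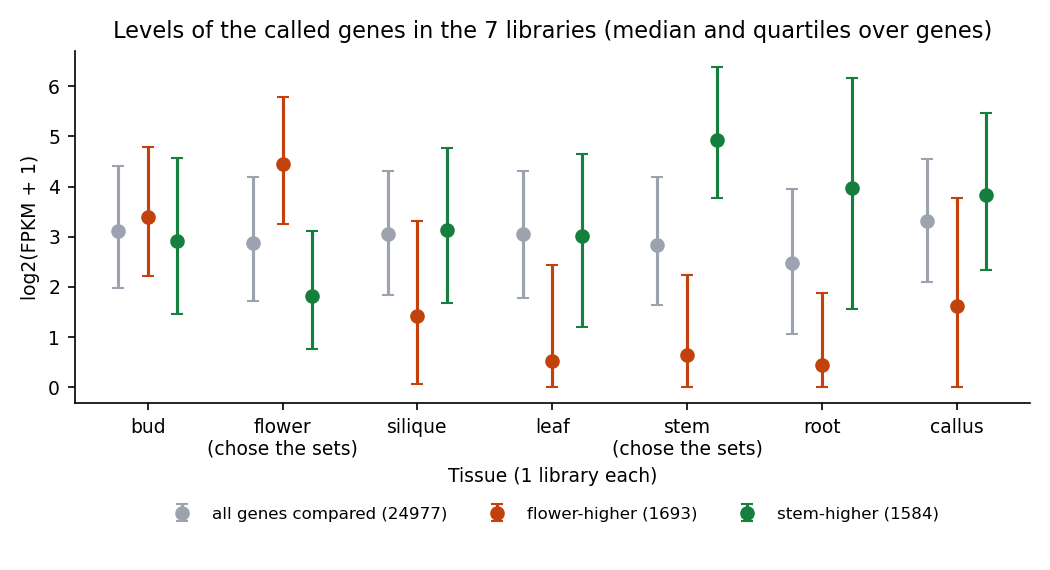
Median (point) and quartiles (bars) of log2(FPKM + 1) over genes in each of the 7 libraries, for all 24977 genes compared, the 1693 flower-higher and the 1584 stem-higher genes; flower and stem chose the sets. Outside those libraries the flower-higher genes stand above the others in bud alone, and the stem-higher genes stand furthest above all genes in root and callus.

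In root against leaf, root was at least 4-fold above leaf for 595 stem-higher genes (37.6%), against 6.95% of all genes, and 285 (18.0%) were higher in leaf, against 13.1%. In bud against root, 641 (40.5%) were higher in root, against 6.55%, and 272 (17.2%) in bud, against 16.6%. Bud and leaf, by contrast, were balanced for these genes, with 124 (7.83%) higher in bud and 115 (7.26%) higher in leaf, against 7.43% and 2.25% of all genes. Silique and leaf gave 219 (13.8%, against 5.72%) and 142 (8.96%, against 3.61%). The balance toward root rested on the larger differences. With a 2-fold limit for both the choice and the contrast, 28.8% of 4689 stem-higher genes were higher in root than in leaf and 38.9% higher in leaf, against 13.7% and 33.2% of all genes, and for bud and root 30.3% were higher in root and 36.4% in bud, against 13.3% and 36.9%. The share higher in root thus exceeded that of all genes at either limit, while the majority direction turned. The 2-fold contrasts were not rerun after trimmed mean rescaling of the 7 libraries. At 4-fold, that rescaling turned the majority over all genes from leaf to root in root against leaf.

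**Figure D4:**
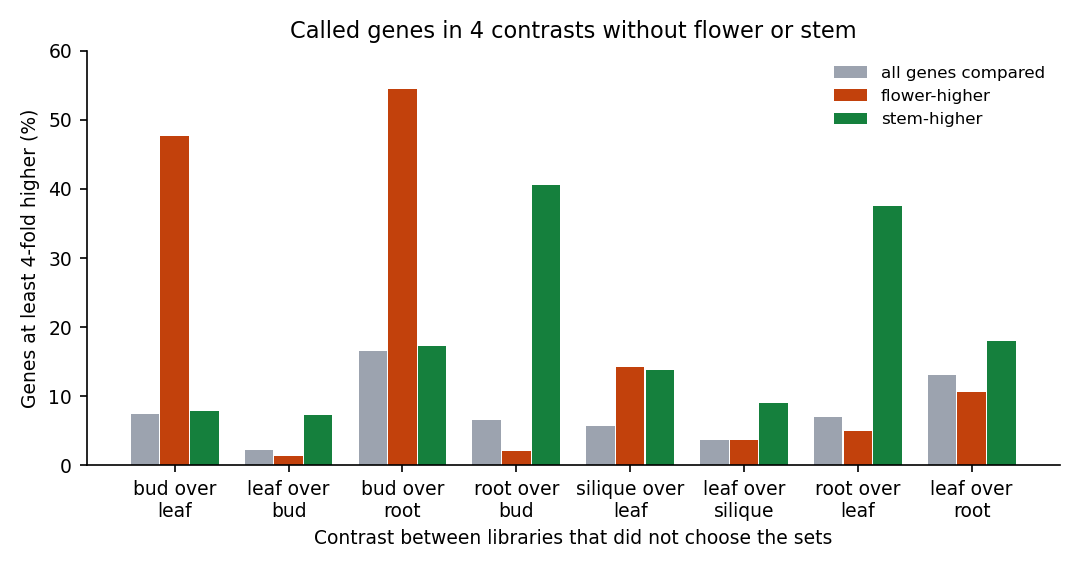
Percent of genes at least 4-fold higher (vertical axis, from 0) in the first-named tissue of each pair, for all genes compared, flower-higher and stem-higher genes, with 1 library per tissue and no error bars. Flower-higher genes reach 47.6% and 54.4% in bud over leaf and bud over root, and stem-higher genes 40.5% and 37.6% in root over bud and root over leaf.

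These differences grew with the size of the difference between flower and stem. The median log2 difference of bud minus leaf was -0.09 for the 15627 genes within 2-fold, 0.45 for 2968 genes between 2-fold and 4-fold higher in flower, 1.46 for 1307 genes between 4-fold and 16-fold, and 4.40 for 386 genes past 16-fold. In the last class 83.7% passed 4-fold toward bud over leaf and 0 genes passed it toward leaf. Toward stem the same contrast did not move in step, with medians of -0.10, 0.00 and 0.12 in the matching classes. Root minus leaf moved there instead, from -0.55 within 2-fold and -0.78 between 2-fold and 4-fold to 0.43 for 1328 genes between 4-fold and 16-fold and 3.73 for 256 genes past 16-fold, of which 68.8% were at least 4-fold higher in root than in leaf and 7.81% in leaf. The relation with root was therefore not a steady slope, since the genes between 2-fold and 4-fold higher in stem had the lowest root minus leaf value of the 7 classes. Across all 24977 genes, flower minus stem had a Pearson's r of 0.38 with bud minus leaf, 0.34 with bud minus root, 0.09 with silique minus leaf and -0.08 with root minus leaf. Spearman's rho was 0.24, 0.17, 0.15 and 0.06 in the same order, so root minus leaf changed sign with the measure. Genes share their libraries in these values and are no replicates.

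**Figure D5:**
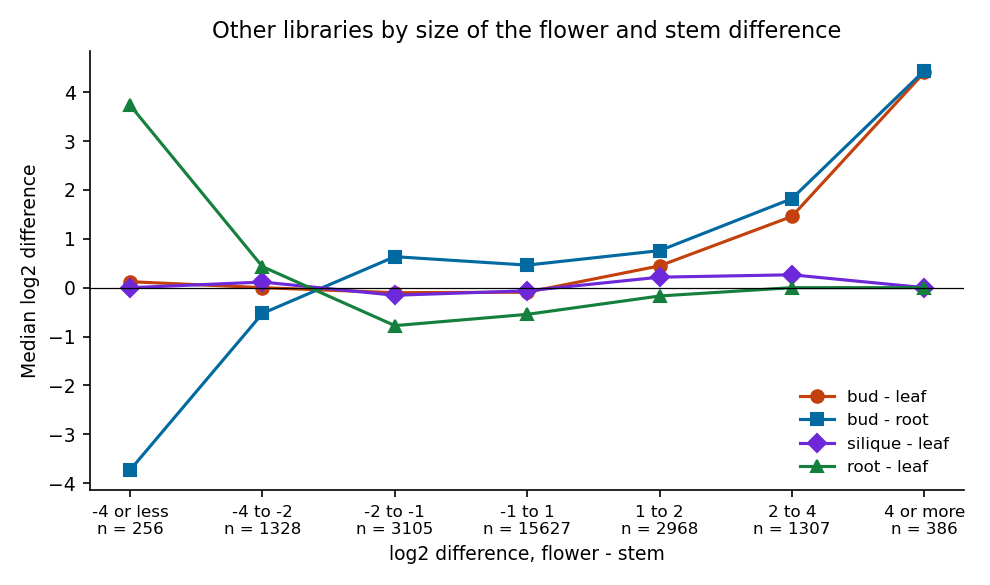
Median log2 difference in 4 contrasts of other libraries (vertical axis) for genes grouped by their log2 difference of flower minus stem (horizontal axis, number of genes under each class). Bud minus leaf and bud minus root climb to 4.40 and 4.44 at the flower end, and root minus leaf climbs to 3.73 at the stem end.

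The flower-higher genes were split by bud and leaf, so that levels in these libraries, and in flower and stem, are set by the choice, and only silique, root and callus were free of it. The 806 genes that were 4-fold higher in bud than in leaf had medians of 23.8 FPKM in flower and 17.7 FPKM in bud by choice, and of 0.175 FPKM in silique, 0.0963 FPKM in root and 0.134 FPKM in callus. Bud and leaf lay within 4-fold for 865 genes (51.1%). This share was below that of all genes, of which 7.43% were higher in bud and 2.25% in leaf. The 865 genes had medians of 18.8 FPKM in flower and 4.37 FPKM in bud by choice. Their medians were 6.07 FPKM in callus, 4.03 FPKM in silique and 1.07 FPKM in root. The 806 genes were thus lower than the 865 in each of the 3 libraries outside the choice. For 131 of the 865 bud was under 1 FPKM. The 22 genes that were 4-fold higher in leaf than in bud (1.30%, against 2.25% of all genes) had medians of 8.93 FPKM in callus, 4.08 FPKM in silique and 1.22 FPKM in root. Among them Bol033477 (Scaffold000042, 526061 to 527852) was at 264 FPKM in leaf, 217 FPKM in callus, 136 FPKM in root, 90.1 FPKM in silique, 74.4 FPKM in flower, 56.3 FPKM in bud and 5.08 FPKM in stem, so stem was low rather than flower high. Bol006096 (Scaffold000286, 457521 to 460372) was at 24.9 FPKM in leaf, 12.3 FPKM in flower, 2.75 FPKM in callus, 1.53 FPKM in bud, 0.957 FPKM in silique, 0.139 FPKM in stem and 0.138 FPKM in root, with 1 fragment in each of stem and root. These values were high in leaf and flower and near 0 in stem and root.

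The stem-higher genes were split by root and leaf, which leaves bud, silique and callus outside the choice. The largest class was the 704 genes (44.4%) with root and leaf within 4-fold. This share was below that of all genes, of which 6.95% were higher in root and 13.1% in leaf. The 704 genes had medians of 8.02 FPKM in silique, 6.56 FPKM in callus and 6.09 FPKM in bud. The 595 genes that were 4-fold higher in root than in leaf had medians of 28.3 FPKM in callus, 4.16 FPKM in bud and 4.04 FPKM in silique, with 85.5 FPKM in root and 40.7 FPKM in stem by choice. The 285 genes that were 4-fold higher in leaf than in root (18.0%, against 13.1% of all genes) had medians of 29.3 FPKM in silique, 27.6 FPKM in bud and 10.6 FPKM in callus, with 54.3 FPKM in stem and 34.5 FPKM in leaf by choice.

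Bud exceeded leaf by 4-fold for 124 stem-higher genes, and at 7.83% this was near the 7.43% of all genes compared. The pair among them with the largest differences between flower and stem follows. Bol029423 (Scaffold000066_P2, 1532786 to 1533618) was at 281 FPKM in root, 80.4 FPKM in stem, 17.8 FPKM in callus, 4.84 FPKM in bud, 0.509 FPKM in flower, 0.408 FPKM in leaf and 0.102 FPKM in silique. Bol015450 (Scaffold000165, 1073157 to 1073930) was at 621 FPKM in root, 224 FPKM in callus, 130.35 FPKM in stem, 21.8 FPKM in silique, 5.38 FPKM in bud, 1.63 FPKM in flower and 0.410 FPKM in leaf. Both were highest in root, with low values in bud that were still above those in leaf. Their log2 differences of flower minus stem were -5.75 and -5.64.

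The share of a library's summed FPKM carried by the called genes followed the same pairs of organs. Flower-higher genes made up 21.2% of the sum in flower and 1.67% in stem by choice, and 9.73% in bud, 4.72% in callus, 3.74% in silique, 2.39% in leaf and 1.70% in root. Stem-higher genes made up 23.8% in stem and 3.09% in flower, and 28.5% in root, 12.5% in silique, 12.0% in callus, 11.2% in leaf and 8.36% in bud. The share of stem-higher genes was thus larger in root than in stem itself.

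Called genes of both directions were shorter than the genes compared as a whole. FPKM itself divides by length, and whether this bears on the difference was not tested. The implied coding length, which the deposited values allowed to be computed for 24172 of the 24977 genes, had a median of 870 bp in flower-higher genes, 882 bp in stem-higher genes and 1029 bp in all. The locus span had medians of 1595 bp, 1433.5 bp and 1898 bp. The quartiles overlapped widely, from 519 bp to 1374 bp for the coding length of flower-higher genes and from 627 bp to 1542 bp for all genes. Intronless genes, whose coding length equals the locus span within 0.2%, made up 52 of 1540 stem-higher genes (3.38%, 95% Wilson interval 2.58% to 4.40%), 16 of 1659 flower-higher genes (0.964%, 0.595% to 1.56%) and 234 of 24172 genes compared (0.968%). The Wilson intervals treat genes as independent draws.

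Neighbouring genes were called in the same direction at a higher rate than genes compared as a whole. The next gene along the scaffold, where it had also been compared, was flower-higher for 128 of 1146 flower-higher genes (11.2%) and stem-higher for 59 (5.15%), against 6.78% and 6.34% of all genes. It was stem-higher for 126 of 1045 stem-higher genes (12.1%) and flower-higher for 48 (4.59%). Overlapping loci, whose fragments may be shared, accounted for 14 and 13 of the pairs called in the same direction. The longest runs held 4 flower-higher genes. In the run from Bol031321 to Bol031324 (Scaffold000055, 637154 to 650929), the genes were at 17.7 to 85.1 FPKM in flower, 12.9 to 87.4 FPKM in bud and 0.271 FPKM or less in each other library. The run from Bol032746 to Bol032749 (Scaffold000047_P1, 895723 to 933614) included overlapping loci and reached 733 FPKM in flower. Among stem-higher genes the longest runs held 3 genes, and 13 runs had that length, among them the one that ends with Bol040168 and Bol040169.

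Some of the most abundant genes of both organs differed by less than 2-fold. Bol025304 (Scaffold000088, 708026 to 709393) had 6185 FPKM in flower against 4024 FPKM in stem, and Bol021902 (Scaffold000112, 1166553 to 1167007) had 2765 FPKM against 2566 FPKM. On the log2 scale flower exceeded stem by 0.62 (0.58 to 0.66) and 0.11 (0.05 to 0.16). Both were far lower in root, at 12.5 FPKM and 22.9 FPKM, and in callus, at 244 FPKM and 127 FPKM. In bud, silique and leaf they lay between 875 FPKM and 7548 FPKM. The locus of Bol025304 overlaps another locus.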

How the data were processed

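The deposited table holds FPKM and a lower and upper bound of FPKM for 39481 genes in 7 libraries, scaled by the authors, with the library of each column named per the file headers. The submitters' processing notes list TopHat 1.0.13; which program made FPKM, on which build and annotation, is not given in the sources used here. Starts were raised by 1 to count from 1. Differences are log2((flower + 1)/(stem + 1)), called at 4-fold with a minimum of 1 FPKM in either organ. Reading the distance to the upper bound as 2 standard deviations of a count gave whole numbers of fragments for 88.8% of 215412 values (within 0.02, wider for large counts), and with intronless genes the coding length; 98.7% of 36078 lengths were multiples of 3, so UTRs are not included. Floors of 3 fragments and intervals cover counting error only. The 4-fold call, and no other step, was tested on simulated counts that held counting error only. IDs were named by rule: 2 per direction by largest difference (10 FPKM or more), 2 by abundance, 2 against the bud and leaf contrast, 2 even and abundant, and the longest runs of neighbours. The comparison and rules were chosen with earlier results of these data known. Python 3.11.15, numpy 2.4.6, pandas 2.3.3 and scipy 1.17.1 were used.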

Additional observations from a re-analysis of the deposited data

How the results depend on the processing

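No paired analysis was possible because no organ has a second library and nothing was tested. All settings were fixed with earlier results of these data known. The pseudocount and the fold limit moved the counts: 2850 flower-higher and 2619 stem-higher genes with a pseudocount of 0.1, 4661 and 4689 at 2-fold, 386 and 256 at 16-fold. The share higher in flower was 49.9% at 2-fold, which turned the direction, 60.1% at 16-fold, 54.2% per fragment in gene models and 56.2% at equal sums. The median log2 difference was 0 without a filter, 0.025 after trimmed mean rescaling of the pair, 0.12 per fragment in gene models and 0.17 at equal sums. Flower-higher genes higher in bud than in leaf numbered 1553 with a pseudocount of 0.1 (54.5%, all genes 12.5%) and 2069 at 2-fold (44.4%, all genes 17.7%). Those higher in bud than in root numbered 1751 (61.4%, all genes 25.6%) and 2517 (54.0%, all genes 36.9%), so at 2-fold the share was nearer to that of all genes than the reported 54.4% against 16.6%. Stem-higher genes higher in root than in leaf numbered 918 with a pseudocount of 0.1 (35.1%, all genes 9.98%) and 1350 at 2-fold (28.8%, all genes 13.7%), and those higher in root than in bud 1422 at 2-fold (30.3%, all genes 13.3%). Adjacent pairs at 2-fold numbered 736 for flower and 705 for stem, where 18.7% and 18.8% of all genes compared were called, against 6.78% and 6.34% at 4-fold. The share of next genes called in the same direction was not computed at 2-fold. After trimmed mean rescaling of the 7 libraries, which shifted root by -0.41 and leaf by 0.20 on the log2 scale, 713 stem-higher genes (42.2%, all genes 9.52%) were higher in root than in leaf and 262 (15.5%, all genes 9.14%) in leaf, and over all genes the majority turned from leaf to root. The other 58 values that answer a comparison stayed within their limits. For counts these limits were wide. With a pseudocount of 0.5, counts of 2220 flower-higher and 1979 stem-higher genes were still within them. So were the 1120 flower-higher genes higher in bud than in leaf (50.5%, all genes 9.53%). Some of the 58 values could not move, since a 4-fold call needs 3 FPKM. A minimum of 0.5 FPKM or 2 FPKM, or no filter, therefore left the called genes the same. Asking for intervals apart removed no called gene either. Among values of the other contrasts and of the named genes, 58 moved past their limits and 74 did not. The differences of the named genes changed sign 0 times, over 28 values with other pseudocounts and 56 after rescaling. With the organ at 0 set to 3 fragments, 360 of 440 flower-higher and 69 of 99 stem-higher genes listed at 0 still passed 4-fold.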

Other observations

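The 52 intronless stem-higher genes followed root and callus more than the green organs. Their median was 10.1 FPKM in stem and 8.56 FPKM in root, 5.30 FPKM in callus, 0.491 FPKM in silique, 0.213 FPKM in leaf, 0.197 FPKM in bud and 0.0245 FPKM in flower. At 1 FPKM or more, 43 of the 52 were detected in root, 40 in callus, 20 in silique, 10 in leaf and 7 in bud. All 234 intronless genes compared, which include the 52, leaned the same way, so this was not particular to stem-higher genes. Their medians were 1.62 FPKM in callus, 1.40 FPKM in root, 0.464 FPKM in silique, 0.321 FPKM in leaf and 0.216 FPKM in bud. At 1 FPKM or more, 133 of the 234 were detected in callus, 130 in root, 85 in silique, 72 in leaf and 47 in bud.

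On the 10 scaffolds with at least 200 genes compared, flower-higher genes were between 3.98% and 8.82% and stem-higher genes between 4.56% and 7.72%. The lowest share of flower-higher genes was on Scaffold000022, with 8 of 201 genes.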
